A study of Bos taurus with 20 samples.

Results

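The 37 genes of the bovine mitochondrial genome were taken one by one, out of 27607 genes in the count files. They were all the genes placed on the MT chromosome, between MT positions 364 and 15791 of the assembly ARS-UCD1.2. By length and order along the MT chromosome they fell into 13 protein-coding genes, 2 rRNA genes of 955 and 1571 bases and 22 tRNA genes of 60 to 75 bases. The classes matched the biotypes of a RefSeq gene table for 37 of 37 genes, since every gene had the same start and end there. That table, of the assembly ARS-UCD2.0, gave the names of the 13 protein-coding genes. The tRNA genes are called here by their first base on MT and the rRNA genes by their length.

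RNA was measured in 20 whole bovine conceptuses, the embryo together with its membranes, with 1 library per conceptus. The groups were 4 tubular IL6, 4 tubular control, 6 ovoid IL6 and 6 ovoid control conceptuses. IL6 conceptuses had received recombinant bovine interleukin 6, a cytokine, at 100 ng/ml. It was given from day 5 after fertilisation in vitro until collection as blastocysts on day 7.5. Controls had received the carrier, so that all had been cultured in vitro up to that day. All 20 were transferred on day 7.5, so that treatment ended at transfer, before the conceptuses were recovered. Ovoid and tubular are the shapes given in the labels, and both sexes were present in each group. The labels gave no age of the conceptuses at recovery, and the cells of a whole conceptus were not separated. Because none of the gene identifiers could be matched to a symbol in the gene table used here, the labelled tissue was not checked against cell type markers.

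The mitochondrial genome is a small circle that is read from both strands as long RNAs. These are cut into single genes, mostly at the tRNAs that lie between the protein-coding genes and the rRNAs. Its protein-coding genes all make subunits of the respiratory chain or of ATP synthase. The ND genes belong to complex I, CYTB to complex III, the COX genes to complex IV and the ATP genes to ATP synthase. The rRNAs and tRNAs serve the ribosomes inside the mitochondrion. In the conceptus, mitochondria supply ATP and intermediates for growth during elongation.

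Libraries held between 329666 and 13940103 counts assigned to genes, of which 1693 to 413092 were mitochondrial. The shallowest library, ovoid control replicate 3, stood apart and had the lowest ovoid control level of each protein-coding and rRNA gene. Some of the group shares, rRNA ratios and fold changes that it moved are given with and without it, and the others with it only. The other 19 libraries held at least 2298491 counts. Each title starts with a code that the labels leave unexplained (the title code). Codes c6186 (6 conceptuses) and c9007 (4) hold IL6 conceptuses, and codes c5036 (4), c8086 (2) and c201 (4) hold controls, so that IL6 and title code cannot be told apart. Nothing in the labels says that conceptuses of 1 code had separate parents. In whole conceptuses, fewer cells of a type and less RNA per cell cannot be told apart either.

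Protein-coding genes took 87.4% of the 3657428 mitochondrial counts over all 20 libraries, the rRNA genes 12.0% and the tRNA genes 0.596%. The library RNA had been depleted of ribosomal RNA, so the rRNA share is what depletion left. A tRNA is shorter than a read of 150 nucleotides, and fragments that touched 2 genes could be left unassigned. The tRNA counts therefore do not measure mature tRNA alone. Levels are given below as CPM, counts scaled to the library size with TMM factors, divided by gene length in kilobases, and are called CPM per kb.

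COX1, the core catalytic subunit of complex IV (ENSBTAG00000043561, MT positions 5687 to 7231, plus strand), was the highest protein-coding gene per base in 20 of 20 libraries. It averaged 5543 ± 2291 CPM per kb (SD, n = 20). COX3, another core subunit of complex IV, came next with 1846 ± 708 CPM per kb (SD, n = 20). ATP6 (1261), ND5 (1249.8), COX2 (1175), ND4 (1148) and CYTB (1117) followed with mean levels within 1 SD of each other, and so did ND1 (972), ND3 (856), ND2 (811) and ND6 (703). ND4L (487) and ATP8 (299) had the lowest means. ATP8, a small subunit of ATP synthase, was the lowest in 19 of 20 libraries and ND4L in the other one. Both of these genes overlap a neighbour on the same strand, ATP8 with ATP6 over 40 bases and ND4L with ND4 over 7 bases. Fragments in those bases could be left unassigned.

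**Figure D1:**
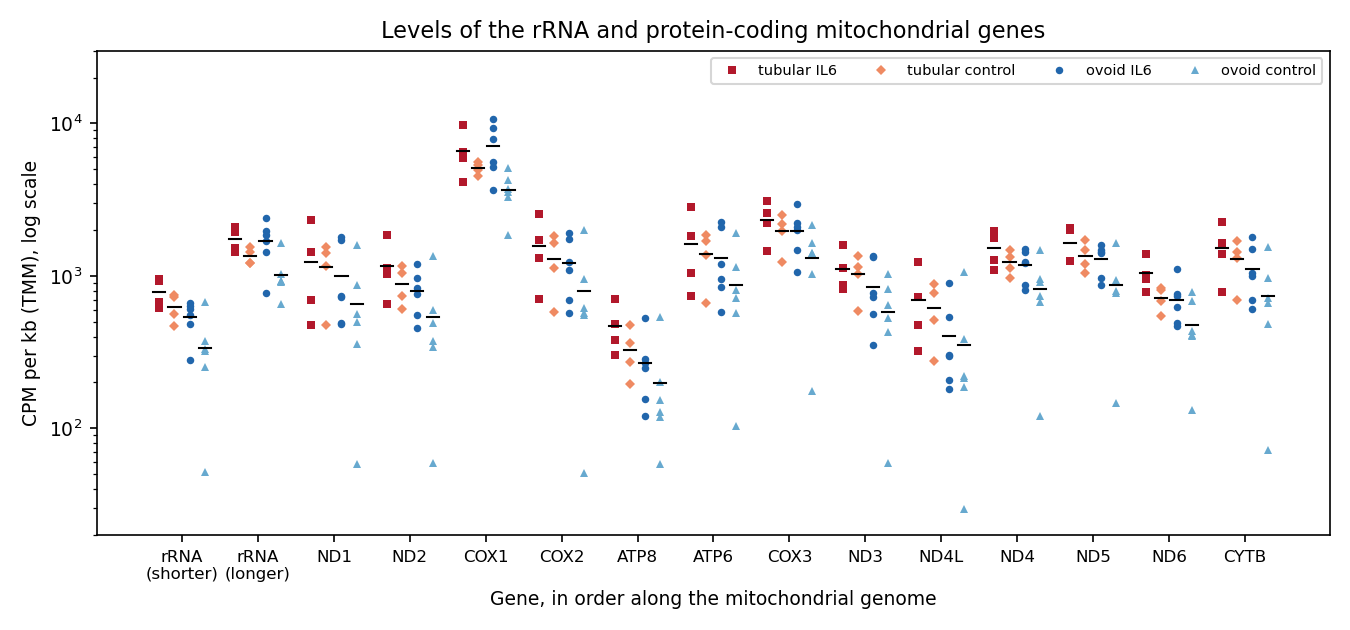
Levels of the 2 rRNA genes and 13 protein-coding genes in map order, in CPM per kb on a log scale. Each point is 1 library, groups run from tubular IL6 to ovoid control within a gene, and the black bar is the group mean. COX1 lies above the other genes, and the low point of most ovoid control columns is replicate 3.

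The level of COX1 was 9701, 5948, 6478 and 4116 CPM per kb in tubular IL6 conceptuses, against 5318, 5588, 4922 and 4525 CPM per kb in tubular controls. In ovoid IL6 conceptuses its lowest, median and highest levels were 3678, 6756 and 10673 CPM per kb, against 1851, 3642 and 5139 CPM per kb in ovoid controls. The groups overlapped in both shapes. In ovoid conceptuses COX1 had the smallest p of any mitochondrial gene between IL6 and control, with a log2 fold change of 0.96 ± 0.30 (SE), which did not pass (edgeR quasi-likelihood test, adjusted p = 0.394). By title code, COX1 averaged 8204 CPM per kb in c6186 and 4860 in c9007, the IL6 codes, against 4940 in c5036, 4723 in c8086 and 3248 in c201, the control codes. Code c9007 thus lay beside c5036 and c8086, and the log2 fold change was 0.23 without c6186 and 0.79 without ovoid control replicate 3. DESeq2 gave an adjusted p of 0.0835 for it with all libraries.

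COX1 also took a varying share of the protein-coding counts. The share was 51.0%, 50.7%, 32.5% and 31.7% in tubular IL6 conceptuses, against 34.6%, 38.7%, 49.6% and 38.5% in tubular controls. Its lowest, median and highest shares were 34.3%, 50.1% and 59.4% in ovoid IL6 conceptuses, against 34.2%, 45.0% and 74.3% in ovoid controls, where the highest was replicate 3. Without that library they were 34.2%, 42.8% and 50.2% in ovoid controls. High and low libraries occurred in all 4 groups. Over 20 libraries the share fell with the log2 total count (Pearson r = -0.90, Spearman rho = -0.92, permutation p = 1e-05 for both, the smallest that 100000 permutations give, adjusted over 9 relations 9e-05). It was -0.90 without the 2 libraries farthest from the median total and -0.74 within c6186, the only code with 6 libraries. This relation to depth was looked for after the values were seen, and the widest 95% Wilson interval of a share in the other 19 libraries was 0.794 percentage points. Wilson intervals cover counting error only. Duplicates were ignored in the counting, and COX1 had up to 118259 counts on 1545 bases. The part of this in the COX1 share and in its relation to depth was not tested.

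**Figure D2:**
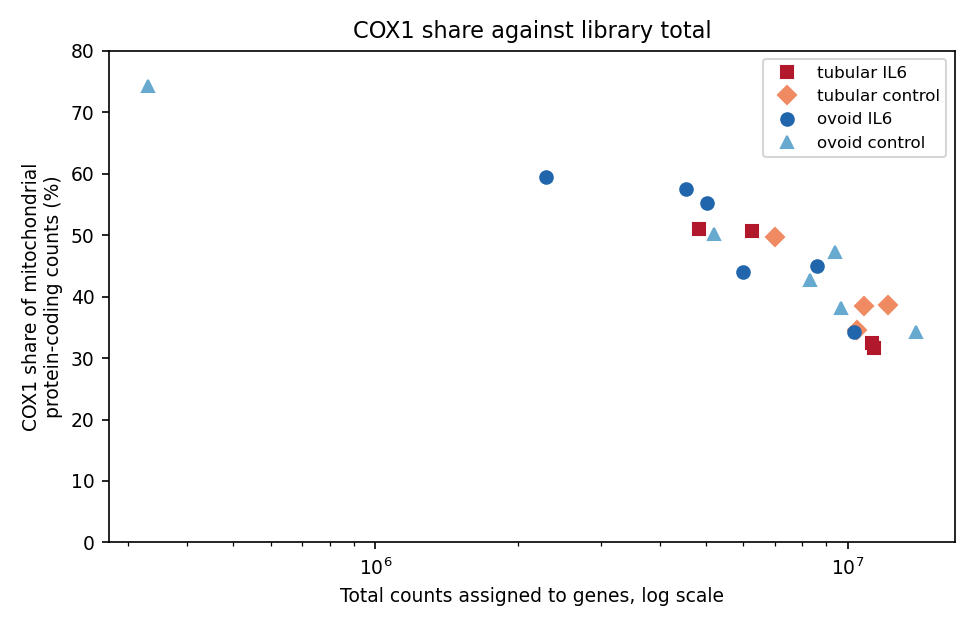
COX1 as a percentage of all mitochondrial protein-coding counts against the total counts of the library, on a log scale. Each point is 1 conceptus, and the share falls with the total, from 74.3% in ovoid control replicate 3 to 31.7% in tubular IL6 replicate 4.

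The other protein-coding genes kept their proportions to each other to different degrees. Over the 78 pairs of the 13 genes, the tightest was ND4 and ND5, both of complex I, whose log2 ratio per base averaged -0.12 with an SD of 0.085 over 19 libraries. The loosest were COX1 to ND4L (SD 0.946) and ND6 to ND1 (SD 0.908). Among the 66 pairs of plus-strand genes the median SD was 0.376. It was 0.680 for pairs that hold COX1 and 0.368 for pairs that do not. These ratios are descriptions, since all pairs share the same libraries and each gene enters many pairs.

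ND1 (ENSBTAG00000043558, MT positions 3101 to 4056), a core subunit of complex I, is the first protein-coding gene of the plus strand, and CYTB (ENSBTAG00000043550, MT positions 14514 to 15653), the cytochrome b of complex III, is the last. ND1 had 692.5, 475, 2333 and 1431 CPM per kb in tubular IL6 conceptuses, against 1539, 1419, 477 and 1165 CPM per kb in tubular controls. In ovoid IL6 conceptuses ND1 had 484 CPM per kb at the lowest, 731 at the median and 1809.5 at the highest, against 58.1, 529.5 and 1592 CPM per kb in ovoid controls. ND1 varied over several fold within each group, more than the groups differed. CYTB had 1395, 789.7, 2262 and 1654 CPM per kb in tubular IL6 conceptuses, against 1694, 1437, 692 and 1308 CPM per kb in tubular controls. In ovoid IL6 conceptuses CYTB had 607 CPM per kb at the lowest, 1023 at the median and 1812 at the highest, against 71.8, 689 and 1552 CPM per kb in ovoid controls. The groups overlapped in all 4 pairs.

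The log2 ratio of CYTB to ND1 per base was 0.48 ± 0.48 in tubular IL6 conceptuses (SD, n = 4), 0.21 ± 0.22 in tubular controls (SD, n = 4), 0.27 ± 0.29 in ovoid IL6 conceptuses (SD, n = 6) and 0.27 ± 0.18 in ovoid controls (SD, n = 6). CYTB was thus the higher of the pair on average in each group. No pair of groups differed beyond the spread, with two-sided exact permutation p between 0.343 and 0.987 and adjusted p between 0.939 and 0.987 over the 20 tests of 5 such measures and 4 pairs. The ratio fell with the log2 total count by rank over 20 libraries (Spearman rho = -0.69, permutation p = 0.00144, adjusted p = 0.00432; Pearson r = -0.35, permutation p = 0.125, adjusted p = 0.187). Pearson's r was -0.71 without the 2 libraries farthest from the median total and -0.09 within c6186.

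ND6 (ENSBTAG00000043546, MT positions 13913 to 14440), another core subunit of complex I, is the only protein-coding gene of the minus strand. It had 1400.5, 956, 1012 and 787 CPM per kb in tubular IL6 conceptuses, against 813, 687, 828 and 546 CPM per kb in tubular controls. Its lowest, median and highest levels were 469, 679.9 and 1116 CPM per kb in ovoid IL6 conceptuses, against 133, 420.3 and 781 CPM per kb in ovoid controls. Counting was done without strand, so minus-strand ND6 RNA and plus-strand RNA across the same bases cannot be told apart. ND6 overlaps the end of ND5 by 17 bases.

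Relative to the plus-strand protein-coding genes, ND6 had a log2 ratio per base of -1.08 ± 0.31 in tubular IL6 conceptuses (SD, n = 4), -1.32 ± 0.40 in tubular controls (SD, n = 4), -1.52 ± 0.45 in ovoid IL6 conceptuses (SD, n = 6) and -1.34 ± 0.30 in ovoid controls (SD, n = 6). Every pair of groups overlapped. The largest difference, 0.43 between tubular and ovoid IL6 conceptuses, did not pass (two-sided exact permutation p = 0.119, adjusted p = 0.725 over the 20 tests).

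The rRNA genes are adjacent on the plus strand, the shorter at MT positions 431 to 1385 (ENSBTAG00000043567) and the longer at MT positions 1453 to 3023 (ENSBTAG00000043570), with 1 tRNA gene between them. The shorter rRNA gene had 919.7, 613, 949 and 670.3 CPM per kb in tubular IL6 conceptuses, against 746, 728, 469.9 and 565 CPM per kb in tubular controls. In ovoid IL6 conceptuses it had 280.0 CPM per kb at the lowest, 578 at the median and 665 at the highest, against 52.1, 326 and 679 CPM per kb in ovoid controls. The longer rRNA gene had 2095, 1532, 1952 and 1428 CPM per kb in tubular IL6 conceptuses, against 1442, 1558, 1214 and 1210.3 CPM per kb in tubular controls. Its lowest, median and highest levels were 769.8, 1773 and 2386 CPM per kb in ovoid IL6 conceptuses, against 655, 924 and 1637 CPM per kb in ovoid controls. Both genes overlapped between the groups of each pair.

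Per base, the longer rRNA gene exceeded the shorter one in each of the 20 libraries, and on average by less in tubular than in ovoid conceptuses. Because ribosomal RNA had been depleted, this ratio and the levels of both genes describe what depletion left. The log2 ratio was 1.19, 1.32, 1.04 and 1.09 in tubular IL6 conceptuses, against 1.38 at the lowest, 1.63 at the median and 1.84 at the highest in ovoid IL6 conceptuses, so that the groups did not overlap. Their means were 1.16 ± 0.12 (SD, n = 4) and 1.62 ± 0.18 (SD, n = 6), a difference of -0.46 with a two-sided exact permutation p = 0.00952 that did not pass after adjustment over 20 tests (adjusted p = 0.1905). Among controls the ratio was 0.95, 1.10, 1.37 and 1.10 in tubular conceptuses, against 1.27, 1.5 and 3.65 at the lowest, median and highest in ovoid conceptuses, with overlap. The means were 1.13 ± 0.17 (SD, n = 4) and 1.87 ± 0.89 (SD, n = 6), a difference of -0.74 (exact permutation p = 0.0810, adjusted p = 0.725). The highest value was that of ovoid control replicate 3, and the difference was -0.39 once that library was left out.

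The same order of the shapes stood within every title code that held both. In c6186 the log2 ratio was 1.19 and 1.32 in the 2 tubular conceptuses, against 1.62 to 1.84 in the 4 ovoid ones. In c9007 it was 1.04 and 1.09 in tubular and 1.38 and 1.46 in ovoid conceptuses, and in c5036, of controls, 0.95 and 1.10 in tubular and 1.27 and 1.45 in ovoid conceptuses. With shape permuted within these 3 codes over 14 libraries, the mean difference was -0.40, and its exact permutation p of 0.00185 is the smallest that 540 arrangements allow (two-sided, adjusted p = 0.00926 over 5 measures). This within-code test was chosen after the values were seen. In c6186 and c9007 the order was already fixed by the lack of overlap among IL6 conceptuses, so that only c5036 added libraries. The p of 0.00185 from this permutation test therefore gives no separate support for the difference. The 14 libraries do not include ovoid control replicate 3. The other 4 measures had adjusted p between 0.324 and 0.933 in the same test.

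The ratio also moved with depth. Over 20 libraries it fell with the log2 total count (Pearson r = -0.93, permutation p = 3e-05, adjusted p = 0.000135; Spearman rho = -0.77, permutation p = 8e-05, adjusted p = 0.00036). Pearson's r was -0.67 without the 2 libraries farthest from the median total and -0.52 within c6186. Within codes, shape and depth were arranged differently. In c9007 both tubular conceptuses, with 11248373 and 11366747 counts, were deeper than both ovoid ones, with 10296130 and 8589036. In c6186 the tubular conceptuses had 4845404 and 6262473 counts, and the ovoid ones between 2298491 and 5978192. In c5036 the tubular conceptuses, with 10466338 and 12138818 counts, lay between the ovoid ones, with 13940103 (ratio 1.27) and 9390744 (ratio 1.45). The part of depth in the difference between the shapes was not tested.

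**Figure D3:**
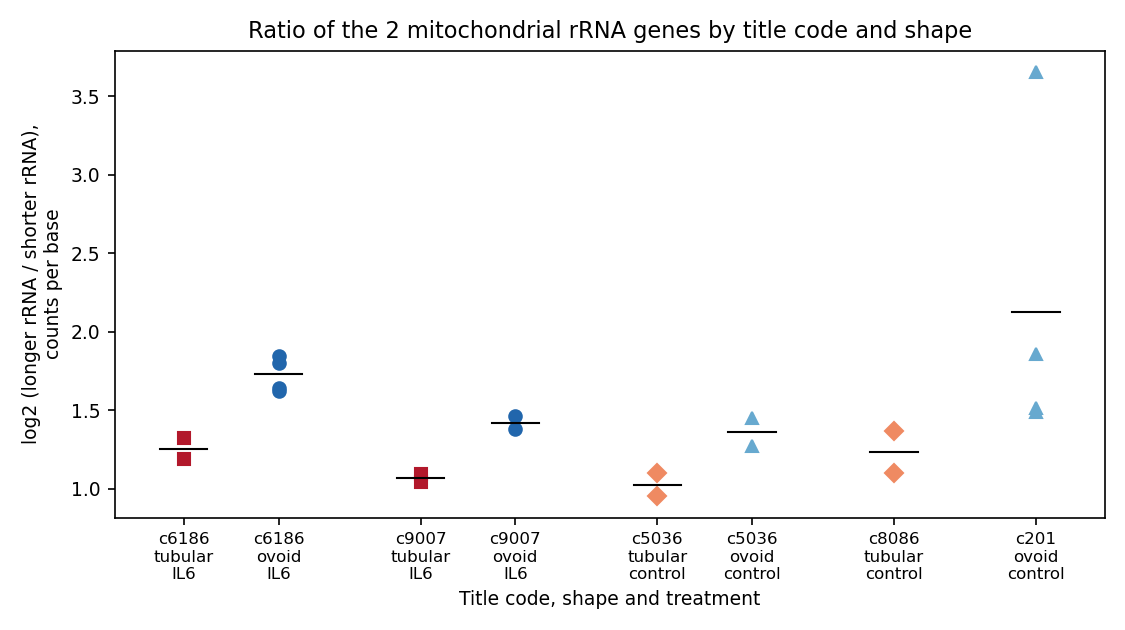
The log2 ratio of the longer to the shorter rRNA gene, in counts per base, by title code and shape. Each point is 1 conceptus and the bar is the mean of the column. The tubular conceptuses lie below the ovoid ones in c6186, c9007 and c5036, and ovoid control replicate 3 of c201 stands apart at 3.65.

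For the single rRNA genes no change passed. The shorter rRNA gene had a log2 fold change, tubular over ovoid, of 0.86 ± 0.42 (SE) in controls and 0.54 ± 0.41 (SE) in IL6 conceptuses, and the longer one of 0.42 ± 0.30 and 0.05 ± 0.29 (SE). The adjusted p was 0.9998 for both genes in controls and 0.99997 for both in IL6 conceptuses (edgeR quasi-likelihood test). Without ovoid control replicate 3 these fold changes in controls were 0.69 for the shorter and 0.34 for the longer gene. Between ovoid IL6 and ovoid control conceptuses the log2 fold change of the longer rRNA gene was 0.74 ± 0.26 (SE), which did not pass (edgeR, adjusted p = 0.425). This fold change was 0.09 without c6186 and 0.60 without ovoid control replicate 3. The fold change of 0.05 for shape in IL6 conceptuses turned sign with some libraries left out. The rRNA share of the mitochondrial counts was 12.6% ± 1.13 in tubular IL6 conceptuses and 12.1% ± 0.909 in tubular controls (SD, n = 4 each), and 12.5% ± 2.25 in ovoid IL6 conceptuses and 13.8% ± 4.08 in ovoid controls (SD, n = 6 each). Without replicate 3 the share in ovoid controls was 12.1% ± 1.196 (SD, n = 5), and the difference between ovoid IL6 and ovoid control conceptuses was 0.331 percentage points, against -1.28 with it. These shares overlapped in all pairs, with adjusted p between 0.939 and 0.987 (exact permutation tests). The rRNA share had a Pearson r of -0.82 with the log2 total count (permutation p = 0.00271, adjusted p = 0.00813; Spearman rho = -0.41, permutation p = 0.0780, adjusted p = 0.176). It was -0.36 without the 2 libraries farthest from the median total, so that the relation rests on those libraries.

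The 22 tRNA genes had 21800 counts in all, very unevenly spread. The minus-strand tRNA gene at MT positions 15726 to 15791 (ENSBTAG00000043582), the last gene before the noncoding region, held 50.7% of them with 11048 counts. The next were the minus-strand gene at MT positions 5446 to 5518 (ENSBTAG00000043573) with 3664 counts and the plus-strand gene at MT positions 12038 to 12108 (ENSBTAG00000043566) with 2687 counts, and these 3 genes together held 79.8%. The 8 minus-strand tRNA genes had 16248 counts, 11048 of them from the gene at 15726, and the 14 plus-strand ones 5552. Counting was done without strand, so these sums go by the strand of the gene and not of the RNA. The plus-strand tRNA gene at 1386, between the rRNA genes, was the only member with 0 counts in all 20 libraries, which allows up to 8.20e-05% of the mitochondrial counts.

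Neighbouring tRNA genes differed strongly. In the cluster of 5 tRNA genes between ND2 and COX1, those at 5446 and 5551 flank a spacer of 32 bases and had 3664 and 1115 counts. The genes at 5308, 5376 and 5618 in the same cluster had 15, 9 and 73 counts. The tRNA genes at 11907, 11977 and 12038 lie in a row before ND5 and had 414, 747 and 2687 counts. At the other side of the noncoding region, the tRNA gene at 364 had 20 counts.

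**Figure D4:**
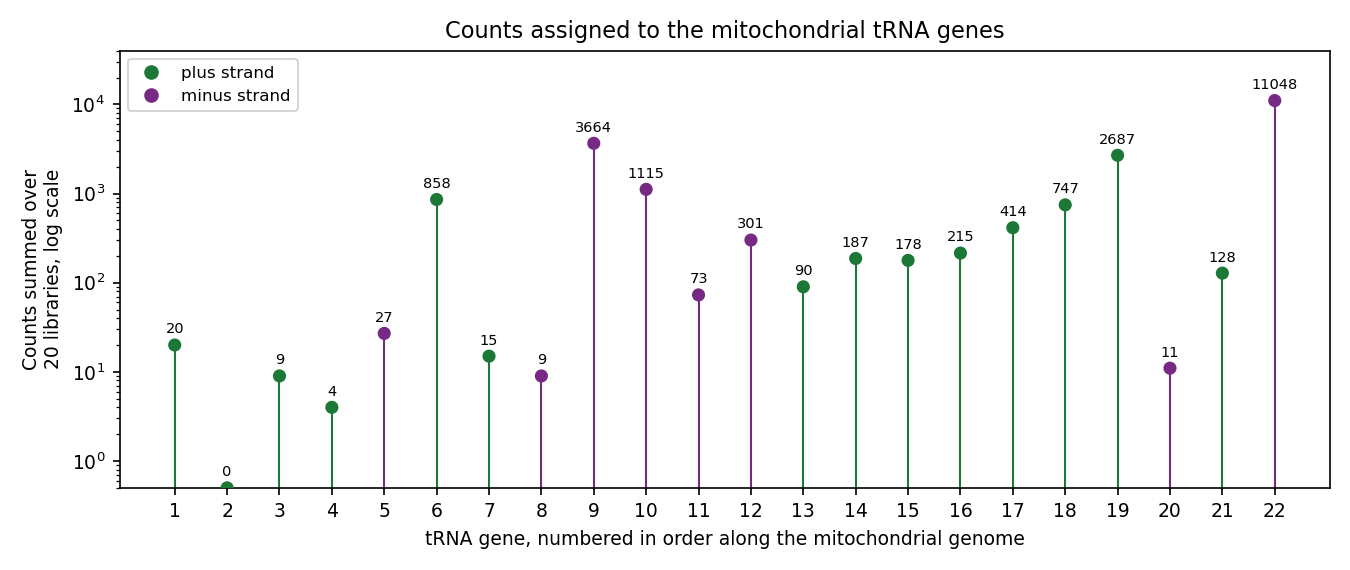
Counts of the 22 tRNA genes summed over 20 libraries, on a log scale, numbered in map order and coloured by the strand of the gene. The numbers over the points are the counts. The 22nd gene has 11048 counts, the 9th 3664 and the 19th 2687, and the 2nd gene, with 0, is drawn at the lower edge.

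The top tRNA gene, at 15726, had 2043, 1024, 1287 and 1051 CPM per kb in tubular IL6 conceptuses, against 1282, 1444, 847 and 1141 CPM per kb in tubular controls. Its lowest, median and highest levels were 711, 1041.5 and 1302 CPM per kb in ovoid IL6 conceptuses, against 44.3, 789 and 1075 CPM per kb in ovoid controls. The gene at 5446 had 254, 124, 585 and 312 CPM per kb in tubular IL6 conceptuses, against 536, 448, 98.3 and 282 CPM per kb in tubular controls. It had 90.4, 184 and 501 CPM per kb in ovoid IL6 conceptuses at the lowest, median and highest, against 0, 146 and 491 in ovoid controls. The gene at 12038 had 817, 501, 120.4 and 116 CPM per kb in tubular IL6 conceptuses, against 140.5, 151, 443 and 140.2 CPM per kb in tubular controls. It had 134, 311 and 658 CPM per kb in ovoid IL6 conceptuses at the lowest, median and highest, against 41.2, 169 and 506 in ovoid controls. All 3 genes overlapped between the groups of each pair. The tRNA share of the mitochondrial counts was 0.611% ± 0.112 in tubular IL6 conceptuses and 0.645% ± 0.0375 in tubular controls (SD, n = 4 each), and 0.549% ± 0.0802 in ovoid IL6 conceptuses and 0.637% ± 0.108 in ovoid controls (SD, n = 6 each), with adjusted p between 0.725 and 0.987 (exact permutation tests). Without replicate 3 the tRNA share in ovoid controls was 0.670% ± 0.0806 (SD, n = 5).

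The balance of these genes differed between libraries, and high and low values occurred in all 4 groups. In 9 libraries the log2 count ratio of the tRNA gene at 12038 to that at 5446 lay between -2.32 and -0.76, and in 10 libraries between 0.13 and 2.16. Ovoid control replicate 3, with 1 and 0 counts of these genes, has no ratio. The log2 ratio of ND6 to ND1 per base ran from -1.88 to -0.86 in the 9 libraries and from -0.37 to 1.02 in the 10, without overlap but with no wider gap between the sets than within them. ND1 itself had 872 to 2333 CPM per kb in the 9 libraries and 357 to 736 CPM per kb in the 10. The plus-strand tRNA gene at 4197, between ND1 and ND2, had 50.0 to 169 CPM per kb in the 9 and 0 to 45.0 CPM per kb in the 10. ND1 and this tRNA gene were the only members whose level did not overlap between the sets. The share of all genes tested without overlap between the sets was not computed, so this count has no background. Of the 9 libraries, 2 were tubular IL6, 3 tubular control, 2 ovoid IL6 and 2 ovoid control. By code, 1 of the 6 libraries of c6186, 3 of 4 in c9007, 3 of 4 in c5036, 1 of 2 in c8086 and 1 of 4 in c201 were among them. Their totals ran from 5978192 to 13940103 counts, against 2298491 to 9390744 counts in the 10, with an overlap, and the part of depth was not tested. The sets were divided by the sign of the tRNA ratio after the values were seen, so no test is given between them. Within them, neither relation between the ratios passed after adjustment (Pearson r = -0.29 over the 9 libraries, permutation p = 0.504, adjusted p = 0.562, Spearman rho = -0.22, adjusted p = 0.655; r = 0.70 over the 10, permutation p = 0.0257, adjusted p = 0.0579, Spearman rho = 0.52, adjusted p = 0.1995). Without the 2 libraries farthest from the median, r was 0.09 over 7 and 0.30 over 8 libraries. The division by the tRNA ratio narrowed the range of that ratio within each set. These values therefore cannot show whether the 2 ratios are related over all libraries.

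**Figure D5:**
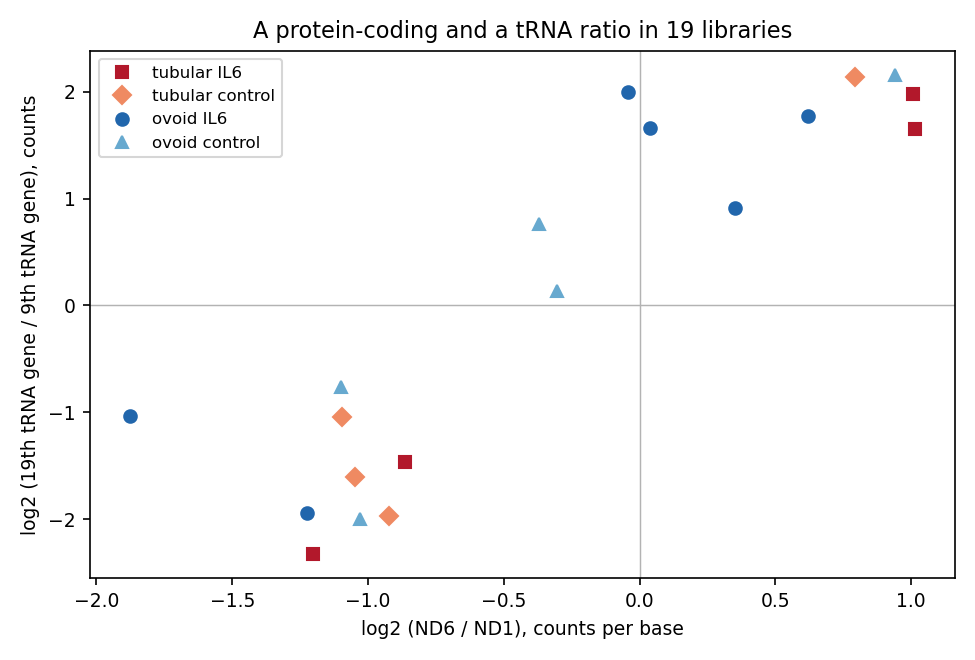
The log2 ratio of ND6 to ND1, in counts per base, against the log2 count ratio of the 19th tRNA gene (at 12038) to the 9th (at 5446) in 19 libraries. Each point is 1 conceptus. The 9 libraries at the lower left and the 10 at the upper right each hold all 4 groups.

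In the tests of single genes, 27 of the 37 members passed the filter on low counts: all 13 protein-coding genes, both rRNA genes and 12 tRNA genes. The 10 tRNA genes below it had 258 counts in all libraries together. No member was called in any comparison, 6 in all (edgeR quasi-likelihood test, adjusted p under 0.05). Over all 14875 genes tested, 0% were called in the 2 IL6 comparisons, in the 2 comparisons of shape and in their interaction, and 0.0538% between males and females. At an unadjusted p under 0.05, IL6 against control in ovoid conceptuses had 2 members higher and 1 lower, where 5.33% and 3.01% of all genes passed. Elsewhere 0 members passed that p, where 2.51% of all genes passed for IL6 in tubular conceptuses, 1.64% for shape in controls, 2.80% for shape in IL6 conceptuses, 0.632% for the interaction and 6.88% for sex. DESeq2 called 0 members in each comparison, against 0.589% of all genes for IL6 in ovoid conceptuses and 0.641% for sex and 0% in the rest. At an unadjusted p under 0.05, DESeq2 had 3 members for IL6 in ovoid conceptuses (10.2% of all genes), 1 for shape in controls (2.75%) and 1 for the interaction (0.973%). It had 0 members for IL6 in tubular conceptuses (4.31%), for shape in IL6 conceptuses (4.46%) and for sex (9.77%).

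Between ovoid IL6 and ovoid control conceptuses the 13 protein-coding genes all had positive log2 fold changes, between 0.09 and 0.96, and the 12 tested tRNA genes ran from -2.68 to 0.78. The median over the 27 members was 0.53, beside 0.02 over all genes tested, and 24 were positive and 3 negative. It was 0.24 without ovoid control replicate 3 and 0.85 without ovoid control replicate 5. Without code c201, which holds replicate 3, 13 members were positive and 14 negative, with a median of -0.03. In tubular conceptuses the median for IL6 over control was 0.27, beside 0.00 over all genes, with 22 members positive and 5 negative. It was 0.03 without tubular control replicate 3, and 0.13 without tubular IL6 replicate 1 and likewise without tubular IL6 replicate 3. Without c8086 it was -0.06, with 12 positive and 15 negative. None of the single fold changes behind these medians passed the test.

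Between tubular and ovoid controls the protein-coding genes had log2 fold changes from 0.47 to 0.99, and the median over the 27 members was 0.63, beside 0.00 over all genes. Without ovoid control replicate 3 it was 0.47, and without c201 it was 0.26. Between tubular and ovoid IL6 conceptuses the member median was 0.36, beside -0.03 over all genes, and it lay between 0.19 and 0.58 with each code left out and was 0.24 without ovoid IL6 replicate 1. ATP8 had the smallest p there, with 382, 304, 710.3 and 481 CPM per kb in tubular IL6 conceptuses, against 120.1, 259 and 526.3 CPM per kb at the lowest, median and highest in ovoid IL6 conceptuses. These overlapped, and its log2 fold change was 0.88 ± 0.46 (SE; edgeR, adjusted p = 0.99997). In controls ATP8 had 475, 363, 197 and 271 CPM per kb in tubular conceptuses, against 58.2, 141 and 537.5 CPM per kb in ovoid ones.

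The tRNA gene at MT positions 15658 to 15726 (ENSBTAG00000043572, plus strand) was the only tested member with groups that did not overlap in CPM. This held in 1 of the 4 pairs, ovoid IL6 against ovoid control. Its counts were 2, 2, 1, 2, 0 and 4 in the 6 ovoid IL6 conceptuses, against 32, 7, 2, 10, 9 and 15 in the 6 ovoid controls. They summed to 11 counts in ovoid IL6 and 75 in ovoid control conceptuses. Its median level was 26.6 CPM per kb in ovoid controls, against 6.36 in ovoid IL6, 6.02 in tubular IL6 and 8.08 in tubular control conceptuses. It thus passed the filter on low counts mainly through ovoid controls, the group where it was high. The lack of overlap between ovoid IL6 and ovoid control conceptuses is therefore a description and gives no support for an effect. Lower without overlap in this comparison were 0.0672% of all genes tested, and higher without overlap 0.148%. In the pairs where no member stood apart, 2.39% of all genes were higher and 1.65% lower without overlap for IL6 in tubular conceptuses, 0.155% and 0.141% for shape in controls and 0.450% and 0.289% for shape in IL6 conceptuses. Its log2 fold change of -2.68 ± 0.85 (SE) did not pass (edgeR, adjusted p = 0.398), and it was -2.53 without ovoid control replicate 3. In tubular conceptuses the sums were 18 counts with IL6 and 24 in controls, and the difference of the IL6 effects, tubular minus ovoid, was 2.54 ± 1.24 (SE; edgeR, adjusted p = 1). That difference was 1.21 without tubular IL6 replicate 2. It shares 1 base with the tRNA gene at 15726 on the other strand, whose log2 fold change between ovoid IL6 and ovoid control conceptuses was 0.57 ± 0.32 (SE; edgeR, adjusted p = 0.686).

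The member with the smallest p was the shorter rRNA gene between tubular and ovoid controls, and the tRNA gene at 15658 for the interaction. For IL6 in tubular conceptuses and for sex, the members with the smallest p were other tRNA genes of low level. The gene at MT positions 11977 to 12036 (ENSBTAG00000043551) had 246, 182, 55.0 and 48.7 CPM per kb in tubular IL6 conceptuses, against 36.1, 60.1, 158 and 44.6 CPM per kb in tubular controls. In both groups some libraries were several times higher than the others, and the log2 fold change of 0.84 ± 0.63 (SE) did not pass (edgeR, adjusted p = 0.9997). It was 0.13 without tubular IL6 replicate 1 and 1.39 without tubular control replicate 3. In ovoid conceptuses its lowest, median and highest levels were 34.5, 118 and 212 CPM per kb with IL6, against 35.4, 52.3 and 151 CPM per kb in controls. Between 10 males and 10 females the smallest p was that of the gene at MT positions 11907 to 11976 (ENSBTAG00000043544), with a log2 fold change of -0.60 ± 0.39 (SE, male over female; edgeR, adjusted p = 0.819). It was -0.26 without ovoid control replicate 5. It had 44.1, 15.8, 64.1 and 56.1 CPM per kb in tubular IL6 conceptuses, against 63.2, 33.6, 39.3 and 19.8 CPM per kb in tubular controls. In ovoid conceptuses it had 9.40, 32.5 and 47.2 CPM per kb with IL6, against 12.3, 20.4 and 71.8 CPM per kb in controls. The member median for sex was -0.18, beside 0.00 over all genes. Its sign turned without ovoid control replicate 5 (0.14), without tubular IL6 replicate 3 (0.007), without c5036 (0.08) and with the title code as a random block (0.07), and it was -0.04 without ovoid IL6 replicate 1 and -0.30 without ovoid control replicate 3.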

How the data were processed

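The authors deposited, for each library, unnormalised counts of fragments per gene, made with featureCounts 2.0.1 on the annotation of Ensembl release 105 for ARS-UCD1.2, without strand, with duplicates ignored and with no option for reads of several alignments or of 2 genes, per the file headers. Reads that also align to nuclear copies of mitochondrial sequence are therefore uncertain. Per the submitters' processing notes, HISAT2, SAMtools and Picard were also used, with versions not given in the sources used here. Ribosomal RNA depletion and paired reads of 150 nucleotides are given in the labels' protocols.

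One quasi-likelihood model in edgeR 4.0.16 (R 4.3.3), with TMM factors, robust dispersions, 4 group terms and sex, was fitted to all 20 libraries and to the 14875 genes kept by the default filter by group. The 6 comparisons are contrasts of it, with Benjamini-Hochberg adjustment over all 14875 genes and a threshold of 0.05. SEs are the log2 fold change over the square root of F. Shares and ratios were compared by two-sided exact permutation tests over all arrangements of the libraries, coded with NumPy 2.4.6. Wilson intervals were made in SciPy 1.17.1. With 4 against 4 libraries the smallest p is 0.0286, with 4 against 6 it is 0.00476 and with 6 against 6 it is 0.00216. Both tests were tested on simulated data.

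Alternatives were DESeq2 1.42.0, RLE factors, no filter, CPM above 1 in at least 4 libraries, scaling on genes outside MT, no sex term, the title code as a random block (limma 3.58.1), each library or title code left out, labels permuted within sex, other denominators and 0.5 counts added to sums. The members and lists were chosen with earlier results of these data known. Given in full were both rRNA genes, the highest and lowest protein-coding gene, the minus-strand one, the first and last plus-strand ones, the 3 tRNA genes of highest mean CPM and the member of smallest p in each comparison. Of the 27607 identifiers, 0 matched the RefSeq table, so the lists of nuclear genes for mitochondrial transcription and of cell type markers gave no values. No sequence is printed.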

Additional observations from a re-analysis of the deposited data

Results flagged for a closer look

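Of 84 sets of values of 1 measure in 1 group, 8 had a library set apart from the rest of its group by Dixon's criterion, and chance gives about 1 in 20. Ovoid control replicate 3, the shallowest library, was apart in 3 of them, with an rRNA share of 21.8% (10.9% to 13.8% in the other 5), a protein-coding share of 77.7% (85.4% to 88.5%) and a log2 rRNA ratio of 3.65 (1.27 to 1.85). Ovoid IL6 replicate 4 had a log2 ratio of ND6 to the plus-strand protein-coding genes of -2.36, against -1.60 to -1.16 in the other 5. Ovoid control replicate 5, the deepest library, had 537.5 CPM per kb of ATP8, against 58.2 to 200.2. Tubular control replicate 3 had 443 CPM per kb of the tRNA gene at 12038, against 140.2 to 151 in the other 3, and ovoid control replicate 4 had 151 CPM per kb of its neighbour at 11977, against 35.4 to 56.4. Both of these libraries were among the 10 in which the gene at 12038 exceeded the one at 5446. Ovoid IL6 replicate 5 had 0 CPM per kb of the tRNA gene at 15658, against 4.62 to 6.84 in the other 5, a difference of 4 counts at most.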

How the results depend on the processing

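The count of members called stayed at 0 in all 191 refits (32 alternatives over the 6 comparisons). Libraries could not be paired by replicate number, because the labels give the groups no shared replicate numbers. Title codes, which are not replicate numbers, served instead for shape within codes and as a random block. Depth limits the tRNA values, since the 10 untested tRNA genes had at most 90 counts each over 20 libraries. The log2 difference of the rRNA ratio kept its sign under each alternative in both comparisons of shape, and with 1 library left out it lay between -0.52 and -0.42 with IL6 and between -0.86 and -0.39 in controls.

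Shares and ratios whose sign turned had adjusted p of at least 0.939 with all libraries, and the cause was not tested. For IL6 minus control in tubular conceptuses, leaving out c6186 turned the rRNA share to -0.158 percentage points and the log2 values to -0.064 (rRNA ratio), -0.012 (ND6 to plus strand) and -0.13 (CYTB to ND1). There the rRNA ratio was also -0.074 without c5036 and -0.0095 within sex, and the tRNA share 0.0574 points without c9007. For IL6 minus control in ovoid conceptuses, the rRNA ratio was 0.26 without c201, and CYTB to ND1 was 0.081 without c201, 0.095 without c9007 and 0.026 within sex. For tubular minus ovoid controls, the tRNA share was -0.0199 points without c201, -0.00827 within sex and -0.00286 over tRNA plus protein-coding counts. There ND6 to plus strand was -0.14 without c8086, and CYTB to ND1 was 0.028 without c201 and 0.039 without c5036. For tubular minus ovoid IL6 conceptuses, the rRNA share was -0.255 points without c9007 and -0.141 within sex, and the tRNA share -0.0691 points without c6186. Single log2 fold changes turned to -0.14 for the longer rRNA gene (tubular over ovoid with IL6, without c9007) and -0.52 for the tRNA gene at 11977 (IL6 over control in tubular, without c6186).

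With 1 library left out, values ran through 0 as follows. The rRNA share lay between -2.07 and 0.331 points (IL6, ovoid), -0.0226 and 0.885 (IL6, tubular) and -0.412 and 0.884 (shape, IL6). The tRNA share lay between -0.0783 and 0.00354 points (IL6, tubular) and -0.0249 and 0.0329 (shape, controls). The rRNA ratio lay between -0.37 and 0.11 (IL6, ovoid) and -0.029 and 0.11 (IL6, tubular). ND6 to plus strand lay between -0.18 and 0.13 (shape, controls). CYTB to ND1 lay between -0.064 and 0.088 (IL6, ovoid) and -0.16 and 0.010 (shape, controls). The log2 fold change of the longer rRNA gene lay between -0.11 and 0.18 (shape, IL6).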
